A study of Mus musculus with 3 samples.

Results

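The 10 genes described here are *Myc*, *Mycn* and *Mycl* of the Myc family, their partner *Max*, and *Mxd1*, *Mxd3*, *Mxd4*, *Mnt*, *Mlx* and *Mlxip* of the wider Max network. They were found as the probes whose RefSeq accession belongs to one of these symbols. This gave 17 probes for 10 of the 22911 genes that could be named on the arrays. Transcript levels were compared over Colon26, a murine colon adenocarcinoma line from BALB/c mice (female), and its sublines LuM1 and NM11, which the submitters label as high-metastatic and low-metastatic tumor cells. All 3 lines were kept in RPMI1640 with fetal bovine serum and antibiotics, with no further treatment, and 0.1 µg of total RNA from cells cultured for 3 days was hybridized to 1 single-colour array per line. Each line is therefore 1 sample, and differences between lines had no replicate check and no test.

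Myc proteins are transcription factors that bind DNA only as a pair with Max, mostly at the E-box CACGTG, and activate genes of ribosome production, nucleotide and polyamine synthesis and cell cycle entry. The Mxd proteins and Mnt pair with the same Max and recruit Sin3 corepressor complexes to the same sites, so that Myc and Mxd are commonly described as opposing each other. Mlx pairs with some Mxd proteins and with Mnt in place of Max, and also with Mlxip (MondoA), a sensor of glucose metabolites. In colon cancer, *Myc* is best known as a target of the Wnt and β-catenin pathway.

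The submitters' labels call the parental line a colon adenocarcinoma line, but several defining epithelial markers were missing. Of 8 colon epithelial markers, *Krt18*, *Krt19*, *Cdh1* and *Vil1* were not well above background on any array, and 3 markers in Colon26, 4 in LuM1 and 3 in NM11 were. Their summed signal was 1154 in Colon26, 441 in LuM1 and 387 in NM11, and its fall in LuM1 lay mainly in *Krt20* (651.4 in Colon26 and 54.5 in LuM1). *Cdx2* was well above background in all 3 lines, at 443.0 in Colon26, 231.7 in LuM1 and 167.2 in NM11. *Krt8* went the other way, at 28.9 in Colon26, 107.6 in LuM1 and 37.1 in NM11, and *Epcam* was well above background in LuM1 only (28.0). Of 5 fibroblast markers, 3 were well above background in Colon26 and 4 in each subline, and their summed signal was 5442 in Colon26, 34890 in LuM1 and 19589 in NM11. *Dcn* (decorin) made up most of this sum in LuM1, being not above background in Colon26 and reading 27503 in LuM1 and 9599 in NM11. *Col3a1* and *Pdgfra* were also higher in both sublines. *Col3a1* read 293.8 in Colon26, 1170 in LuM1 and 2655 in NM11, and *Pdgfra* read 218.0, 3965 and 1286 in the same order. *Col1a1* (collagen I) went the other way in LuM1 only, at 4918 in Colon26, 2247 in LuM1 and 6045 in NM11. The leukocyte marker *Ptprc* (CD45) and the endothelial markers *Cdh5*, *Kdr* and *Tek* were not well above background on any array. The 5 leukocyte markers summed to 6359 in Colon26, 8074 in LuM1 and 5505 in NM11. Well above background were 3, 4 and 3 of them. Most of this sum was *Itgam*, at 5027, 6818 and 4251 in the same order. Its other probe read 63.4, 17.9 and 31.0, and was not well above background in LuM1. *Csf1r* and *Cd3e* were also well above background on all 3 arrays. The 4 endothelial markers summed to 68.5, 66.0 and 93.9, with 1 well above background in each line. The part of these markers in the results below was not tested, and in bulk RNA fewer cells of a type and less RNA per cell cannot be told apart. Slide and scan were the same for the 3 arrays.

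Promoter sequences are shown first, for the 4 of the 10 genes whose promoter held the E-box through which Myc and Max act, and for *Cdk4*, a cyclin-dependent kinase gene induced by Myc, whose promoter held the motif 4 times. Each runs 5′ to 3′ on the strand of the gene, from 250 bases before its start to 50 bases after, as given by RefSeq on GRCm38.p6. Capitals mark CACGTG, which reads the same on both strands. *Max* lies on the minus strand (chr12:76962199-76962498), *Mnt* (chr11:74830674-74830973) and *Mlx* (chr11:101087040-101087339) on the plus strand, *Mxd4* on the minus strand (chr5:34187661-34187960), and *Cdk4* on the plus strand (chr10:127063285-127063584).
Max: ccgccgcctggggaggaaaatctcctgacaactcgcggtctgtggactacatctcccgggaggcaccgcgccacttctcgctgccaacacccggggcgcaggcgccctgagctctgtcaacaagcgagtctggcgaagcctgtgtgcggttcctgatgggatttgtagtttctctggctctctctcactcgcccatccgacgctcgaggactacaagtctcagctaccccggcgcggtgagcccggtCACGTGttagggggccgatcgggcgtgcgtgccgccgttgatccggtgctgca
Mnt: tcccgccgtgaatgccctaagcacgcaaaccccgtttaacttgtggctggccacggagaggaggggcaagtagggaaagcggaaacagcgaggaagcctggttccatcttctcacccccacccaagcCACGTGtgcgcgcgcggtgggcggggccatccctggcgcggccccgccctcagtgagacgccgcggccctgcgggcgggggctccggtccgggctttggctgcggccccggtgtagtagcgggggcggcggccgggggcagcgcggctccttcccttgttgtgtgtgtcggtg
Mlx: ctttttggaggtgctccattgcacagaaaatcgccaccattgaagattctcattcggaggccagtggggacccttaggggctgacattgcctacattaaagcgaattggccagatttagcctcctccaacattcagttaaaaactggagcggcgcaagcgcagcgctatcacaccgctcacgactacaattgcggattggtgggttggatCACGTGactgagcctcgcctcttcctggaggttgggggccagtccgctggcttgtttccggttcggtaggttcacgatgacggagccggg
Mxd4: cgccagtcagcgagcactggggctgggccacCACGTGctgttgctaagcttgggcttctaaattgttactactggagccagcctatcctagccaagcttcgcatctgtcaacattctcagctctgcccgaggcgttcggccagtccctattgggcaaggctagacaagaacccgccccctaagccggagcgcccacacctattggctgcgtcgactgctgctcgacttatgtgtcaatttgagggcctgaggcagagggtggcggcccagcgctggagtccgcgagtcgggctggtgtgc
Cdk4: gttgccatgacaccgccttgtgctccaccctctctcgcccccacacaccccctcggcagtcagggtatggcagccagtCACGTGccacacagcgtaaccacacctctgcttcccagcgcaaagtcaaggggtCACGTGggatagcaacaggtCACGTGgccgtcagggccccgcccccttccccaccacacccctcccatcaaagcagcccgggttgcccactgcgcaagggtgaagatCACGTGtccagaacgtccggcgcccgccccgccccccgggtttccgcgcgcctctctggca

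Counted from the gene start as 0, the motif began at position -3 in *Max*, -40 in *Mlx*, -123 in *Mnt* and -219 in *Mxd4*, and at -172, -118, -98 and -11 in *Cdk4*. A promoter was given for 9 of the 10 genes, all except *Myc*, and 4 of the 9 (44.4%) held the motif. The promoters of *Mycn*, *Mycl*, *Mxd1*, *Mxd3* and *Mlxip* did not hold it in this window. Of all 32851 promoters in the reference, 2349 (7.15%) held it, and of the 12422 promoters of genes measured in all 3 lines, 1236 (9.95%). A pair of CACGTG motifs 5 bases apart, an exact form of the carbohydrate response element bound by Mlx with its partners, was found in 0 of the 32851 promoters. A match is a description of the letters and not evidence of binding.

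Signals below are background-corrected spot intensities in arbitrary units, scaled so that the 75th percentile of each array became 585.1. The ± value is the scanner software's error, 10.0% of the signal plus a constant, and covers the reading of the spot only. Where the software did not call a probe well above background, its reading serves only as a limit. Levels are compared between lines for the same probe and never between genes. A gene is represented by its brightest probe. On this footing 8 of the 10 genes were well above background in all 3 lines, *Mycn* was so in LuM1 cells only, and *Mycl* in none.

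**Figure D1:**
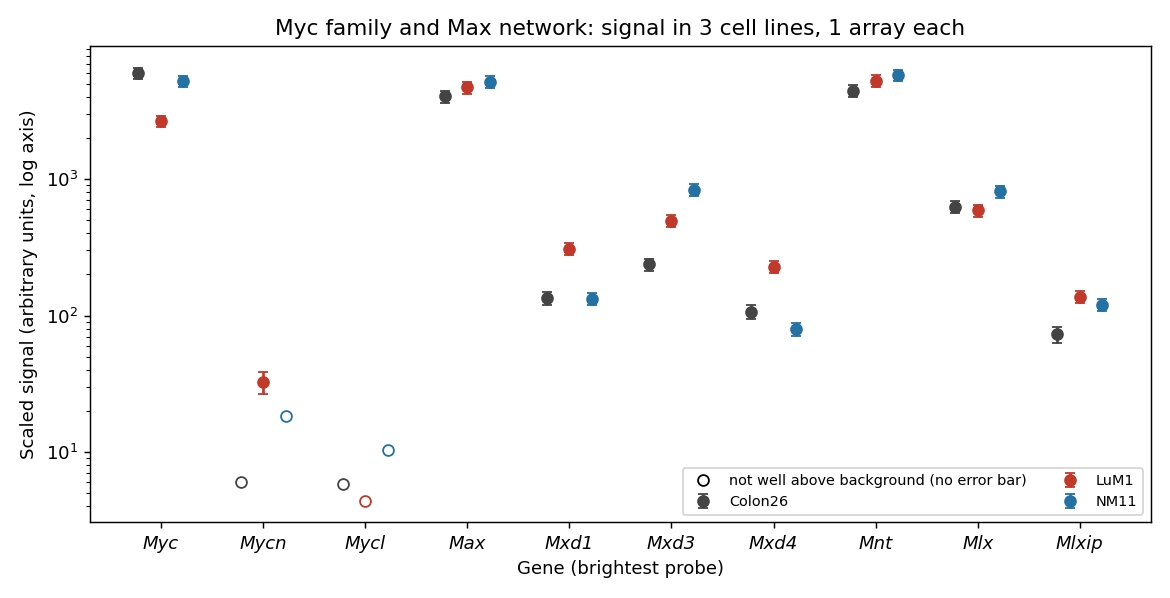
Scaled signal (arbitrary units, log axis) of the brightest probe of each of the 10 genes on the Colon26, LuM1 and NM11 arrays, 1 array each. Bars are the scanner error, and open circles are readings not well above background, which carry no bar. *Myc* is lowest in LuM1 (2653), *Mxd1* and *Mxd4* are highest in LuM1 (306.6 and 228.3), and *Mxd3* is highest in NM11 (837.4).

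*Myc* itself read 5957 ± 596 in Colon26, 2653 ± 265 in LuM1 and 5212 ± 521 in NM11 (n = 1 array each). Colon26 and NM11 were both high and differed by less than the scanner error, and LuM1 was lower than both by more than that error. The log2 ratio of LuM1 over Colon26 was -1.17 ± 0.20, a level 2.25-fold lower, and that of LuM1 over NM11 was -0.97 ± 0.20, or 1.96-fold lower. NM11 over Colon26 was -0.19 ± 0.20. A second *Myc* probe read 727.6 in Colon26, 343.8 in LuM1 and 667.5 in NM11 and gave log2 ratios of -1.08, -0.96 and -0.12 for the same comparisons. Among 12397 named genes measured in both lines, 7.04% had a lower ratio of LuM1 over Colon26 than *Myc*. The level of *Myc* was lower in LuM1 than in Colon26 under all 10 alternative processings and at least 2-fold lower in 8 of them. It was -0.995 after quantile normalization and -0.72 in the values as the authors scaled them. Scaled to *Hprt*, NM11 over Colon26 was -0.68 and LuM1 over NM11 was -0.39. How near *Myc* in NM11 lay to either other line therefore depends on the scaling. LuM1 over NM11 was below 0 in all 10 alternatives and at least 2-fold lower in 0 of them.

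*Mycn*, the paralogue best known from neuroblastoma, read 6.06 in Colon26, which did not differ from background, 32.4 ± 5.85 in LuM1 and 18.2 in NM11, where it was above background but not well above it. The probe was thus well above background in LuM1 cells only, at a level at least 1.23-fold higher than in Colon26 and at least 1.66-fold higher than in NM11. *Mycl*, the paralogue first found in lung cancer, had 2 probes, and neither was well above background on any array. They read 5.78 and 6.33 in Colon26, 4.41 and 4.56 in LuM1, and 10.3 and 4.25 in NM11. No ratio was taken for this gene. *Myc* was the one Myc family gene with a measured ratio between the lines.

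*Max*, the partner that Myc, Mxd and Mnt proteins share, read 4035 ± 404 in Colon26, 4697 ± 470 in LuM1 and 5141 ± 514 in NM11. Its levels lay close together in the 3 lines, with log2 ratios of 0.22 ± 0.20 for LuM1 over Colon26, 0.35 ± 0.20 for NM11 over Colon26 and -0.13 ± 0.20 for LuM1 over NM11. LuM1 and NM11 differed by less than the scanner error by this probe and by slightly more, -0.23 ± 0.21, by the second *Max* probe. *Mnt*, the broadly expressed repressor of the network, read 4436 ± 444 in Colon26, 5240 ± 524 in LuM1 and 5767 ± 577 in NM11. Its log2 ratios were 0.24 ± 0.20 for LuM1 over Colon26 and 0.38 ± 0.20 for NM11 over Colon26. *Max* and *Mnt* were both somewhat higher in each subline than in Colon26, by less than 2-fold, but scaling to *Hprt* turned NM11 over Colon26 to -0.14 for *Max* and -0.11 for *Mnt*.

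The 3 Mxd genes, which encode Max partners that repress transcription, all passed 2-fold upward in LuM1 over Colon26. *Mxd1* (Mad1), a gene linked to differentiation, read 134.2 ± 14.7 in Colon26, 306.6 ± 31.0 in LuM1 and 132.8 ± 14.0 in NM11. LuM1 stood above both other lines, which differed by less than the scanner error. The log2 ratios were 1.19 ± 0.22 for LuM1 over Colon26 (2.29-fold), 1.21 ± 0.21 for LuM1 over NM11 (2.31-fold) and -0.01 ± 0.22 for NM11 over Colon26. The other *Mxd1* probe was not well above background on any array, so 1 probe carries this result.

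*Mxd4* (Mad4) read 106.3 ± 12.3 in Colon26, 228.3 ± 23.3 in LuM1 and 79.6 ± 9.08 in NM11. LuM1 was highest and NM11 lowest, and the 3 readings were apart by more than the scanner error. The level in LuM1 was 2.15-fold higher than in Colon26 (log2 ratio 1.103 ± 0.22) and 2.87-fold higher than in NM11 (log2 ratio 1.52 ± 0.22). NM11 over Colon26 was -0.42 ± 0.23, which is less than 2-fold. *Mxd4* had 1 probe.

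*Mxd3* (Mad3), which unlike other Mxd genes is known to be expressed in dividing cells, had another order. It read 236.9 ± 24.3 in Colon26, 495.4 ± 49.7 in LuM1 and 837.4 ± 83.8 in NM11, so that both sublines were above Colon26 and NM11 was highest. The ratio was 2.09-fold for LuM1 over Colon26 (log2 1.06 ± 0.21) and 3.53-fold for NM11 over Colon26 (log2 1.82 ± 0.21). LuM1 was 1.69-fold lower than NM11 (log2 -0.76 ± 0.20). The second *Mxd3* probe gave log2 ratios of 1.21 for LuM1 over Colon26, 2.15 for NM11 over Colon26 and -0.94 for LuM1 over NM11. *Mxd3* had the largest range over the 3 lines of the 8 genes measured in all of them.

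The ratios of all 3 Mxd genes in LuM1 over Colon26 lay near the 2-fold line. They stayed at least 2-fold in 9 of 10 alternative processings each. With normexp background correction, which adds an offset and so shrinks the ratios of dim probes, they were 0.92 for *Mxd1*, 0.86 for *Mxd3* and 0.75 for *Mxd4* on the log2 scale.

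*Mlx*, the partner of Mlxip, read 624.8 ± 62.8 in Colon26, 589.5 ± 59.1 in LuM1 and 811.9 ± 81.3 in NM11. Colon26 and LuM1 differed by less than the scanner error, and NM11 was higher, by a log2 ratio of 0.38 ± 0.20 over Colon26, which scaling to *Hprt* turned to -0.11. The second *Mlx* probe gave log2 ratios of -0.34 ± 0.26 for LuM1 over Colon26, beyond the scanner error, and 0.33 ± 0.24 for NM11 over Colon26. *Mlxip* read 72.7 ± 9.38 in Colon26, 137.7 ± 14.5 in LuM1 and 119.9 ± 12.7 in NM11. Both sublines read above Colon26, LuM1 by 1.89-fold (log2 0.92 ± 0.24) and NM11 by 1.65-fold (log2 0.72 ± 0.24), and they differed from each other by less than the scanner error. The other *Mlxip* probe was not well above background on any array.

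In LuM1 over Colon26, 3 of the 9 genes with a ratio or bound were thus at least 2-fold higher, and 1 was at least 2-fold lower, *Myc*. The same held for 24.9% of the 14182 named genes with a ratio or bound, 13.1% upward and 11.8% downward. The median log2 ratio was 0.58 over the 8 genes with a measured ratio and -0.13 over all named genes. In NM11 over Colon26, which shares the Colon26 array with the first comparison, 1 of 8 genes was at least 2-fold higher, *Mxd3*, and 0 were lower, against 8.34% and 7.89% of all named genes (16.2% together). In LuM1 over NM11, 2 of 9 were at least 2-fold higher, *Mxd1* and *Mxd4*, and 0 lower, against 11.1% and 8.5% of all named genes (19.6% together). With so few genes these counts describe the 10 genes and nothing wider.

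**Figure D2:**
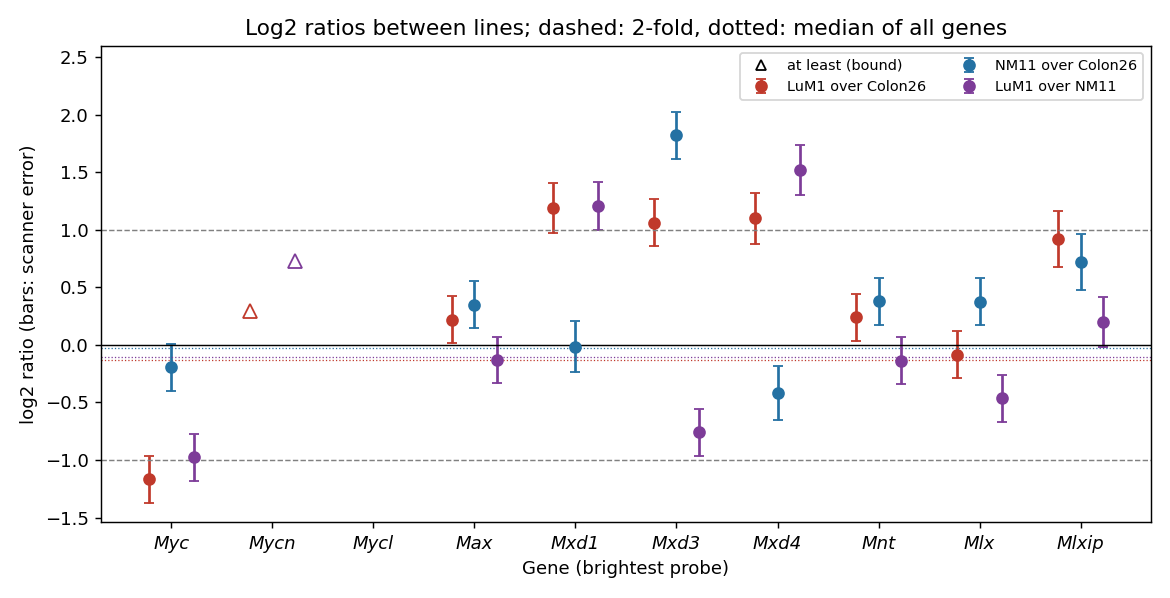
Log2 ratios of the brightest probe of each gene for LuM1 over Colon26, NM11 over Colon26 and LuM1 over NM11, which share arrays pairwise. Bars are the scanner error, triangles are lower bounds, dashed lines mark 2-fold and dotted lines the median of all named genes. *Myc* lies at -1.17 and *Mxd1*, *Mxd3* and *Mxd4* at 1.19, 1.06 and 1.103 in LuM1 over Colon26, and *Mycl* has no ratio.

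The scale of an array cancels when the log2 ratio of *Myc* is subtracted from that of another gene on the same arrays. In LuM1 over Colon26 this difference was 2.36 for *Mxd1*, 2.27 for *Mxd4*, 2.23 for *Mxd3*, 2.09 for *Mlxip*, 1.41 for *Mnt*, 1.39 for *Max* and 1.08 for *Mlx*. All 7 genes therefore changed upward relative to *Myc*, whichever single factor each array is scaled by. So did most named genes, since only 7.04% of the 12397 measured in both lines had a lower ratio than *Myc*. In NM11 over Colon26 the difference was 2.01 for *Mxd3* and -0.22 for *Mxd4*, and in LuM1 over NM11 it was 2.49 for *Mxd4* and 2.18 for *Mxd1*. These differences are unequal changes of transcripts and give no ratio of one transcript to another within a line.

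**Figure D3:**
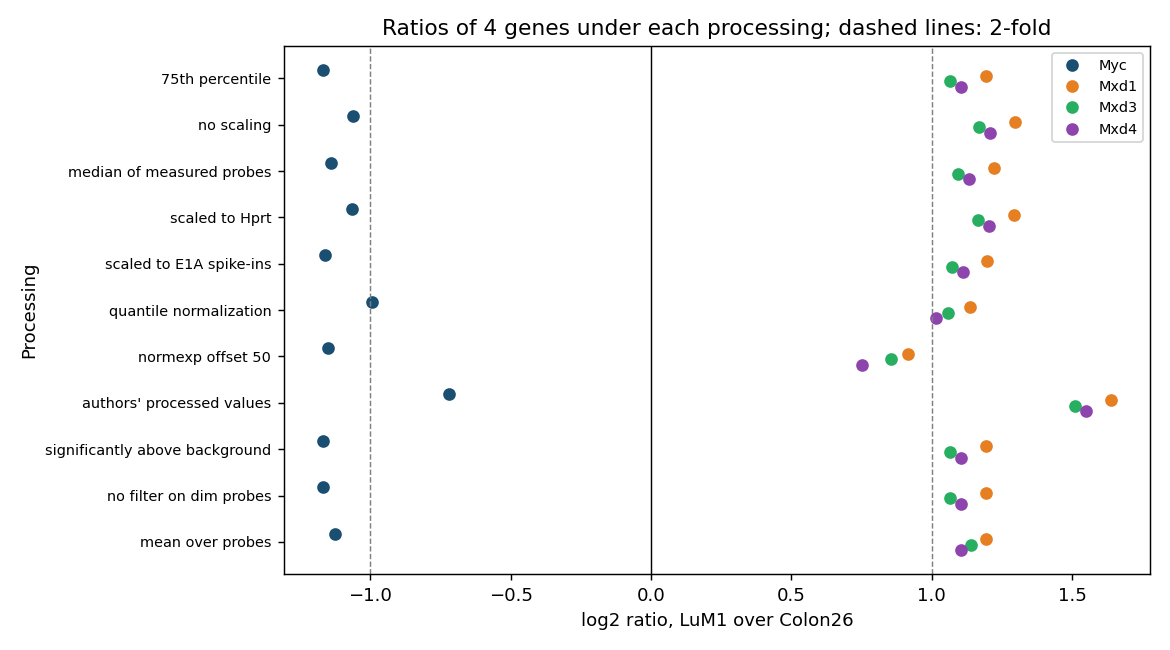
Log2 ratio of LuM1 over Colon26 for *Myc*, *Mxd1*, *Mxd3* and *Mxd4* under the main processing (top row, 75th percentile) and 10 alternatives. Dashed lines mark 2-fold. *Myc* lies between -1.17 and -0.72 and the 3 Mxd genes between 0.75 and 1.64, so neither side reaches 0.

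The other genes of the network stayed within 2-fold under the main processing. *Mxi1* (Mxd2), the remaining Mxd gene, had log2 ratios of 0.23 for LuM1 over Colon26, -0.76 for NM11 over Colon26 and 0.98 for LuM1 over NM11, from readings of 2387 in Colon26, 2791 in LuM1 and 1414 in NM11. *Mga*, a large Max partner found in a Polycomb complex, had log2 ratios of 0.10, 0.19 and -0.09 in the same order. *Mlxipl* (ChREBP), the paralogue of Mlxip known from liver, had log2 ratios of 0.43, -0.16 and 0.59. These ratios depend on the scaling and on the probe. The median of the 3 genes in LuM1 over NM11 was 1.18 when scaled to *Hprt* and 1.01 with the authors' values, both past 2-fold. With the mean over probes, the median of the 3 genes in LuM1 over NM11 went from 0.59 to -0.05, with 2 below 0. In LuM1 over Colon26 it went from 0.23 to 0.04, with 1 below 0.

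Most genes that Myc is known to induce read lower in LuM1 than in both other lines. The list held 30 genes, all well above background in all 3 lines. In LuM1 over Colon26, 13 of 30 were at least 2-fold lower and 0 were higher, beside 11.8% and 13.1% of all named genes. In the authors' scaling 3 were lower and 1 higher. The median log2 ratio was -0.87 over the list and -0.13 over all named genes, and 28 of the 30 lay below the latter. The 13 were *Srm*, *Wdr43*, *Ppan*, *Rcc1*, *Nop56*, *Cad*, *Ccnd2*, *Polr1b*, *Shmt2*, *Mybbp1a*, *Pa2g4*, *Gnl3* and *Eif4e*.

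*Srm*, which encodes spermidine synthase, had the lowest ratio. It read 18449 in Colon26, 4528 in LuM1 and 13707 in NM11, so LuM1 was 4.07-fold lower than Colon26 (log2 -2.03 ± 0.20), and its other probes gave -2.00 and -2.03. *Wdr43*, a factor of small ribosomal subunit assembly, read 7256, 2639 and 5548 in Colon26, LuM1 and NM11, a log2 ratio of -1.46 ± 0.20 for LuM1 over Colon26. *Cad*, the enzyme that starts pyrimidine synthesis, read 8895, 3442 and 6062, a log2 ratio of -1.37 ± 0.20. In each of these genes LuM1 was the lowest line and Colon26 the highest.

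Only 2 of the 30 were above 0 in LuM1 over Colon26. *Odc1*, the rate-limiting enzyme of polyamine synthesis, read 30976 in Colon26, 51687 in LuM1 and 21799 in NM11, so it was highest in LuM1, by a log2 ratio of 0.74 ± 0.20 over Colon26 and 1.25 ± 0.20 over NM11. *Odc1* and *Srm* act at successive steps of polyamine synthesis and stood at opposite ends of the list. *Tfrc*, the transferrin receptor, read 527.1, 638.6 and 1082 in Colon26, LuM1 and NM11.

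In NM11 over Colon26, where *Myc* differed by less than the scanner error in the main processing, the median of the 30 targets was 0.01, beside -0.02 over all named genes. Scaled to *Hprt*, this median was -0.48 with 27 of 30 below 0, beside -0.51 over all named genes, and *Myc* was at -0.68. In the main processing 1 target was at least 2-fold higher in NM11, *Tfrc* (log2 1.04 ± 0.20), and 0 were lower. *Hspd1*, a mitochondrial chaperonin, had a log2 ratio of 0.52, and *Tert*, the catalytic subunit of telomerase, -0.79 ± 0.33. In LuM1 over NM11, 14 of 30 were at least 2-fold lower and 1 was higher, *Odc1*, with a median of -0.95 beside -0.11 over all named genes, and 28 of 30 lay below the latter. *Srm* had a log2 ratio of -1.60 there, *Hspd1* -1.22 and *Cad* -0.82. The count of 14 fell to 1 when the arrays were scaled to *Hprt* and to 2 in the authors' scaling, which shifted the median of all named genes by 0.59 and 0.41.

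**Figure D4:**
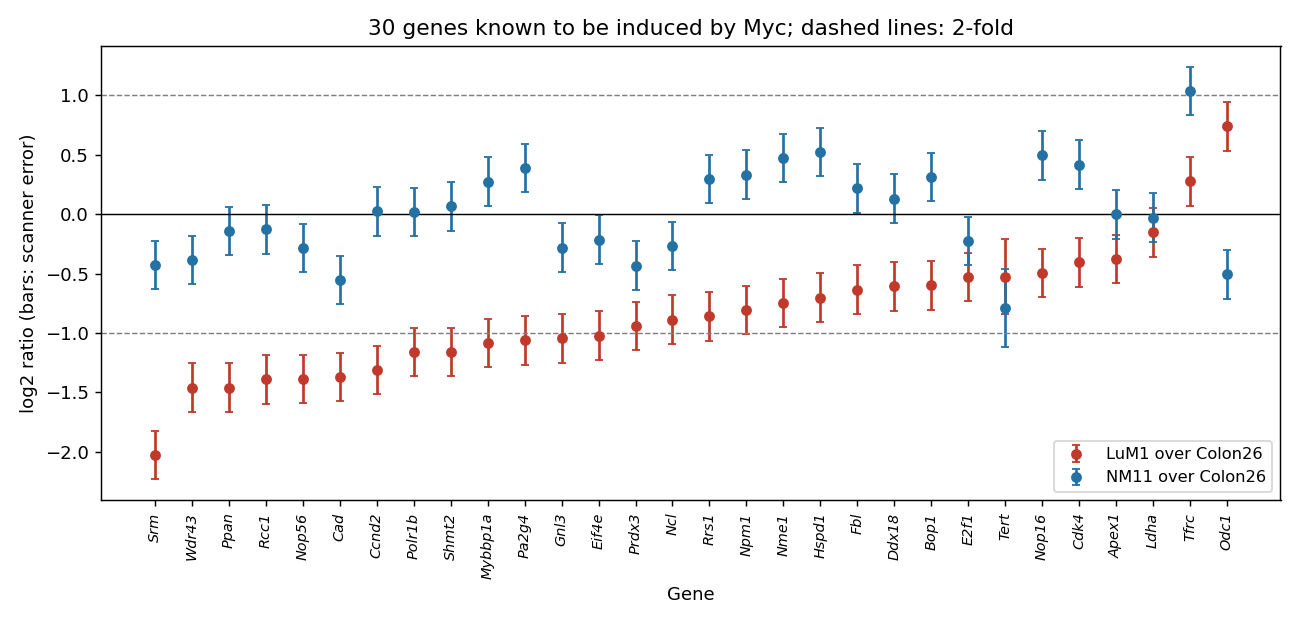
Log2 ratios of 30 genes known to be induced by Myc, for LuM1 over Colon26 and NM11 over Colon26, which share the Colon26 array, ordered by the first. Bars are the scanner error and dashed lines mark 2-fold. In LuM1, 28 of 30 genes lie below 0 and 13 at or below the lower dashed line, and in NM11 the genes spread around 0 with a median of 0.01.

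The targets are bright genes, and bright genes as a whole read lower on the LuM1 array. Among genes outside the list, grouped by mean signal into ranges chosen after their values were seen, the log2 ratio of LuM1 over Colon26 had a median of 0.03 below a signal of 200, -0.02 from 200 to 1000, -0.18 from 1000 to 5000 and -0.30 at or above 5000. In the brightest range 9.62% of 2546 genes were at least 2-fold lower. The 18 targets in that range had a median of -0.85, and 8 of them were at least 2-fold lower. From 1000 to 5000, 9.57% of 3959 other genes were at least 2-fold lower, and the 10 targets there had a median of -0.98 with 5 at least 2-fold lower. For NM11 over Colon26 the brightest other genes had a median of 0.01 and so did the 18 targets. Quantile normalization, which acts on brightness, left the median of all 30 targets in LuM1 over Colon26 at -0.71 with 8 at least 2-fold lower.

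**Figure D5:**
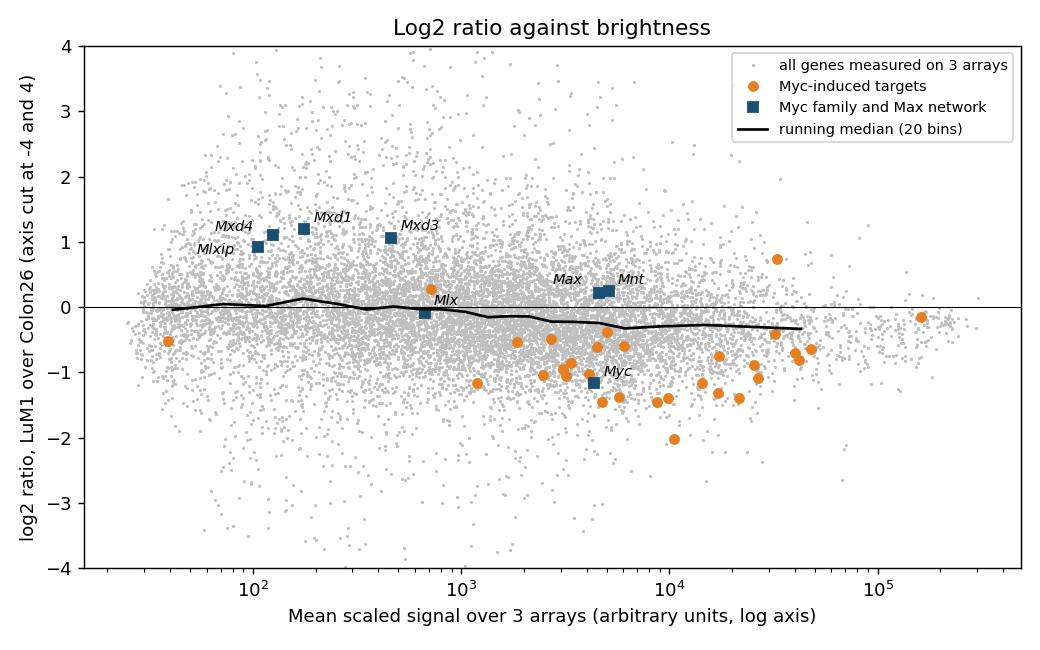
Log2 ratio of LuM1 over Colon26 against mean scaled signal over the 3 arrays (log axis) for all named genes measured on all of them, with a running median. The running median falls below 0 for bright genes, to a median of -0.30 at or above a signal of 5000. Most Myc-induced targets lie below it, as does *Myc*, whereas *Mxd1*, *Mxd3* and *Mxd4* lie above it.

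The E-box was also sought in the target promoters. Of 29 promoters given for 24 of the 30 genes, 9 (31.0%) held CACGTG, beside 9.95% of the promoters of measured genes. The 8 genes with the motif were *Apex1*, *Cdk4*, *Eif4e*, *Hspd1*, *Ldha*, *Mybbp1a*, *Nme1* and *Wdr43*. In LuM1 over Colon26 their median log2 ratio was -0.72 with 3 at least 2-fold lower, and that of the 16 genes without the motif was -0.99 with 8 at least 2-fold lower. *Cdk4*, whose promoter is printed above, read 32195 in Colon26, 24303 in LuM1 and 42969 in NM11, a log2 ratio of -0.41 ± 0.20 for LuM1 over Colon26. In LuM1 over NM11 the order was the other way, with a median of -0.95 and 4 of 8 at least 2-fold lower with the motif, and -0.79 and 6 of 16 without it.

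Most proliferation genes also read lower in LuM1 than in the other lines under the main processing. Of 10 genes, 9 lay below 0 in LuM1 over Colon26, and 1 was at least 2-fold lower, *Ccna2* (cyclin A2, log2 -1.06 ± 0.20). Of all named genes measured in both lines 58.3% lay below 0, and 11.8% of those with a ratio or bound were at least 2-fold lower. The median was -0.49, beside -0.87 for the Myc-induced targets. *Mki67*, which encodes Ki-67, had a log2 ratio of 0.15 ± 0.20 for LuM1 over Colon26 and 0.26 ± 0.20 for NM11 over Colon26. *Mcm5*, a subunit of the replicative helicase, had -0.93 for LuM1 over Colon26, and *Cdk1*, the mitotic kinase, -0.70. The median was 0.13 in NM11 over Colon26 with no gene past 2-fold, and in LuM1 over NM11 it was -0.61 with 2 at least 2-fold lower, *Ccna2* and *Cdk1*, beside 8.5% of all named genes. With the authors' values, 6 of the 10 proliferation genes lay below 0 in LuM1 over Colon26, with a median of -0.04. Scaled to *Hprt*, 5 lay below 0 in LuM1 over NM11, with a median of -0.02. The part of these genes in the result for the targets was not tested.

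Genes that Myc is known to repress did not move as a group. Of 10, 3 were at least 2-fold higher and 1 was lower in LuM1 over Colon26, beside 13.1% and 11.8% of all named genes, and the median was -0.09. *Gas1*, a growth arrest gene, read 95.3 in Colon26, 327.4 in LuM1 and 676.1 in NM11, higher in both sublines by log2 ratios of 1.78 ± 0.22 and 2.83 ± 0.22. *Ndrg2* read 541.2 in LuM1 and was not well above background in the other lines, at least 20.5-fold higher than in Colon26. *Cdkn2b* (p15), a cell cycle inhibitor, was at least 3.59-fold higher in LuM1 by its brightest probe, which was above background in LuM1 only. Its other probe was above background in Colon26 only, at least 2.38-fold lower in LuM1, so its probes disagree in direction.

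*Thbs1*, which encodes the matrix protein thrombospondin 1, was the exception in the other direction. It read 4005 in Colon26, 45.6 in LuM1 and 5358 in NM11, a log2 ratio of -6.46 ± 0.24 for LuM1 over Colon26 and -6.88 ± 0.24 for LuM1 over NM11. *Cebpa*, a differentiation factor, was higher in NM11 only, by a log2 ratio of 2.01 ± 0.23 over Colon26. The cell cycle inhibitors *Cdkn1a* (p21) and *Cdkn1b* (p27) had log2 ratios of -0.37 and 0.37 for LuM1 over Colon26 and -0.51 and -0.28 for NM11 over Colon26. *Gadd45a* and *Ndrg1* stayed within 2-fold in all comparisons. Of the 8 genes measured in NM11 over Colon26, 2 were at least 2-fold higher, *Gas1* and *Cebpa*, and 0 lower, beside 8.34% and 7.89% of all named genes. In LuM1 over NM11 2 were higher and 3 lower of 10, beside 11.1% and 8.5%.

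Among cofactors of Myc and of Mxd, no gene passed 2-fold in any comparison. The 12 Myc coactivators had median log2 ratios of -0.24 for LuM1 over Colon26, 0.12 for NM11 over Colon26 and -0.27 for LuM1 over NM11. In LuM1 over Colon26 they ran from -0.64 ± 0.20 for *Kat2a* (GCN5) and -0.52 ± 0.20 for *Wdr5*, both of chromatin-modifying complexes, to 0.28 ± 0.20 for *Trrap*, a scaffold of such complexes, and 0.34 ± 0.20 for *Zbtb17* (Miz1), through which Myc represses genes. A second probe of *Wdr5* gave -1.22 for LuM1 over Colon26, so its probes differ by more than the scanner error.

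The 6 corepressors of Mxd and Mnt had medians of -0.31, -0.06 and -0.24 in the same order of comparisons. *Sin3a*, the main scaffold of the complex that Mxd proteins recruit, had log2 ratios of 0.09 for LuM1 over Colon26 and 0.33 for NM11 over Colon26. Its paralogue *Sin3b* had -0.73 ± 0.20 for LuM1 over Colon26. The histone deacetylases *Hdac1* and *Hdac2* had 0.02 and -0.40 there. By the main processing, no corepressor transcript in LuM1 was above its Colon26 level beyond the scanner error, whereas the 3 Mxd genes were. This depends on the scaling. In the authors' values the 6 corepressors had a median of 0.14 for LuM1 over Colon26, with 1 below 0.

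Genes that set the stability of the Myc protein were mostly lower in LuM1 under the main processing. Of 10, 9 lay below 0 in LuM1 over Colon26 with a median of -0.85, beside 58.3% of all named genes measured in both lines. At least 2-fold lower were 3, among them *Usp36* and *Aurka*, beside 11.8% of all named genes. With the authors' values, 7 of the 10 lay below 0, with a median of -0.40. *Usp36*, a nucleolar deubiquitinase that stabilises Myc, read 839.2 in Colon26, 367.8 in LuM1 and 851.6 in NM11, a log2 ratio of -1.19 ± 0.20. *Aurka*, a mitotic kinase that binds N-Myc, had -1.04 ± 0.20. *Fbxw7*, the ubiquitin ligase that marks Myc for breakdown, had 0.18 ± 0.20 and *Skp2* -0.32 ± 0.21. *Huwe1* had -0.88 ± 0.20 and *Axin1*, a scaffold of β-catenin breakdown, -0.82 ± 0.20. *Axin1* was also lower in NM11, by a log2 ratio of -0.70 ± 0.20. None of the 10 passed 2-fold in NM11 over Colon26, where the median was -0.07. In LuM1 over NM11, 9 lay below 0 with a median of -0.53, beside 57.0% of all named genes measured in both lines. Scaled to *Hprt*, 4 lay below 0 there, with a median of 0.06.

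Of the 2 targets of Mlxip, *Txnip*, the glucose-induced inhibitor of thioredoxin, followed the same order as *Mlxip* with both sublines above Colon26. It read 7600 in Colon26, 19465 in LuM1 and 18857 in NM11, log2 ratios of 1.36 ± 0.20 and 1.31 ± 0.20 over Colon26. *Arrdc4* read 42.8, 47.2 and 41.0, and its lines differed by less than the scanner error.

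The pattern of a gene over the 3 lines was also matched to those of 12249 named genes measured in all lines, by the distance between the log2 ratios of LuM1 and NM11 over Colon26. The genes nearest to *Mxd3* were *Asphd1*, *Mvd* and *Emp3*, at distances of 0.04, 0.05 and 0.08, and 11 genes lay within 0.2. Those nearest to *Mxd4* were *2900026A02Rik*, *Cadm4* and *Mblac2*, at distances of 0.005, 0.009 and 0.04, with 27 genes within 0.2. For *Myc*, added after values were seen, they included *Klf16* and *Ing5*, at distances of 0.03 and 0.04. As many as 161 genes (1.31%) lay within 0.2 of *Myc*, so its pattern over 3 arrays was common.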

How the data were processed

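Agilent single-colour arrays of Colon26, LuM1 and NM11 cells were analysed, 1 per line. The authors deposited spot intensity values from Feature Extraction 11.5.1.1, background-subtracted and not scaled between arrays, with scanner flags of 0 or 1, read here as deposited. They also deposited a table of processed intensity values equal to the scanner intensity times 1 factor per array (0.654, 0.829 and 0.706 in that order). Control spots and outlier spots (74 to 137 per array) were left out, spots of a probe were averaged, and arrays were put on one scale by their 75th percentiles. The software called 49.9% to 53.8% of the probes well above background and 0 saturated, and precision is limited by the number of arrays. RefSeq accessions of GRCm38.p6 gave a gene to 32989 of 56599 probes. The array was designed on an older assembly, so coordinates are given for the reference promoters only.

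A bound replaced a ratio where 1 array was not well above background, taking the higher of that probe's reading and the lowest reading well above background (26.4, 20.1 and 19.6). No ratio was taken where both were dim. A gene counted at 2-fold or more, and no test was possible with 1 array per line. The 10 genes and all lists were chosen with earlier results of these data known. Named were all 10 genes, all other Max network genes and Mlxip targets, from each other list the 2 highest and 2 lowest ratios over Colon26 and genes past 2-fold through a bound, and the 3 genes nearest in pattern to the 2 genes of widest range. Some genes that this rule names are not reported here. Genes listed because they passed 2-fold or held the motif were named after their values were seen. The 11 alternatives were no scaling, the median of measured probes, *Hprt*, E1A spike-ins, quantile normalization, normexp with an offset of 50 (run on the median spot brightness that the files hold), the authors' values, 2 looser detection rules, the mean over probes, and 4-fold. The calling was tested on simulated data with 4-fold changes planted in brighter probes only. That does not test calls near 2-fold or on dim probes. Python 3.11.15, numpy 2.4.6, pandas 2.3.3, matplotlib 3.10.9 and R 4.3.3 with limma 3.58.1 were used.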

Additional observations from a re-analysis of the deposited data

Results flagged for a closer look

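*Mxd4* moved in opposite directions in the 2 sublines relative to Colon26. It was higher in LuM1 by a log2 ratio of 1.103 ± 0.22 and lower in NM11 by -0.42 ± 0.23, a difference of 1.52 between the sublines. With 1 array each this difference was not tested. It was positive under the main processing and all 10 alternatives that change a ratio, from 0.97 with normexp to 2.11 when scaled to *Hprt*.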

How the results depend on the processing

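No paired analysis was possible because each line had 1 array. Of the 132 counts and settings compared, 100 stayed within 1.5 times the main value. In LuM1 over Colon26, the network genes at least 2-fold higher went from 3 to 0 with normexp, and those lower from 1 to 0 with quantile normalization and the authors' values. Lower Myc-induced targets went from 13 to 8 with quantile normalization and 3 with the authors' values, and each of these 2 gave 1 higher. In NM11 over Colon26, looser detection or no filter gave 2 network genes higher, adding *Mycn*. No target was higher there with no scaling, *Hprt*, E1A, normexp or the mean over probes (0 in place of 1), and 2 were lower with *Hprt* and 1 with E1A. In LuM1 over NM11, normexp left 0 network genes higher, and looser detection or no filter gave 1 lower, *Mycl*. Lower targets there went from 14 to 9 with no scaling, 1 with *Hprt*, 4 with E1A, 7 with quantile normalization and 2 with the authors' values. At 4-fold, 1 target (*Srm*) was lower in LuM1 than in Colon26 and every other count was 0. The authors' values shifted the median of all genes by 0.45 in LuM1 over Colon26 and raised the share of higher genes among those past 2-fold from 52.5% to 77.7%, and from 56.6% to 81.4% in LuM1 over NM11. *Hprt* moved that share from 51.4% to 20.1% in NM11 over Colon26 and to 87.8% in LuM1 over NM11, E1A to 29.4% and 77.1%, and no scaling to 68.6% in LuM1 over NM11. *Max* and *Mnt* in LuM1 over NM11 were above 0 in 5 of 10 alternatives, *Mxd1* in NM11 over Colon26 in 4, and *Mlx* in LuM1 over Colon26 in 3, so their direction depends on the scaling. Dim readings limit *Mycn* and *Mycl*, whose ratios rest on the detection rule.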

Other observations

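The genes next to *Myc* in the gene table differed in pattern. The nearest 5 named genes on each side were taken, leaving out those whose brightest probe was not well above background on any array. Of these, 8 had a measured ratio for LuM1 over Colon26, 3 of the 8 were below 0, and the median of the 8 was 0.10. For LuM1 over NM11, 6 of 9 were below 0 with a median of -0.47. For NM11 over Colon26, 0 of 9 were below 0, with a median of 0.47. Of all measured named genes, 58.3% lay below 0 for LuM1 over Colon26, 57.0% for LuM1 over NM11 and 52.0% for NM11 over Colon26. *Pvt1*, the long noncoding RNA gene next to *Myc*, had log2 ratios of 0.38 for LuM1 over Colon26 and 0.97 for NM11 over Colon26. *Lratd2*, another neighbour, was lower in LuM1 than in both other lines, with log2 ratios of -2.98 over Colon26 and -3.45 over NM11. *Asap1* had log2 ratios of -0.68 for LuM1 over Colon26, 0.07 for NM11 over Colon26 and -0.75 for LuM1 over NM11, and *9930014A18Rik* at most -1.02, 0.13 and at most -1.15. *Macroh2a3* had log2 ratios of 2.02 for LuM1 over Colon26 and 1.62 for NM11 over Colon26. These neighbours were named after their values were seen.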
